A study of Mus musculus with 20 samples.

Results

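The 48 genes described here encode enzymes of phase II conjugation, the step of liver metabolism in which a foreign or endogenous compound is joined to glutathione, glucuronic acid or sulfate. They were chosen by symbol from the GRCm38 annotation, as protein-coding genes of the glutathione S-transferases (Gsta, Gstm, Gstp, Gstt, Gstk and Gsto, with the microsomal Mgst), the UDP-glucuronosyltransferases (Ugt1a, Ugt2a and Ugt2b, and Ugt3a) and the sulfotransferases (Sult). A gene was kept when at least 5 of the 20 mice had 10 or more reads on its strand. Of 66 genes with such a symbol, 48 met this read limit, among 55573 gene IDs in the files, and they comprise 22 glutathione S-transferases, 19 UDP-glucuronosyltransferases and 7 sulfotransferases. Just inside the limit were *Gsto2*, with 10 reads in the fifth-highest mouse, and *Gstp2*, with 18. The nearest genes outside it were *Sult3a1* and *Sult4a1*, with 1 read each in the fifth-highest mouse. Of the 18 genes left out, 6 had no read in any mouse and 17 had at most 5 reads in every mouse. The exception was *Sult3a1*, with 38 reads in replicate 5 of the 11-week-old Titan mice and at most 4 in any other mouse.

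The study compared Titan mice, a non-inbred line bred over many generations for high body mass, with the unselected FZTDU control line from which it was derived. RNA was sequenced from the livers of male mice at 11 weeks and at 19–21 weeks of age, with 5 mice in each of the 4 groups, described in the labels as biological replicates. The study describes free access to a standard breeding feed at the institute that bred the mice, and standard mouse chow at the German Mouse Clinic. It does not say at which site the sequenced livers were taken. No group carried an introduced allele or a treatment. Each line is a single breeding population, so the effect of selection and any other difference between the lines cannot be told apart.

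Glutathione S-transferases add glutathione to electrophiles, UDP-glucuronosyltransferases transfer glucuronic acid from UDP-glucuronate, and sulfotransferases transfer sulfate from the donor PAPS. In hepatocytes the products are exported into bile or blood by transporters, and several of the enzymes also act on bilirubin, bile acids and steroid hormones. Expression of these families is known to respond to the receptors CAR, PXR and AHR, to the oxidative stress factor NRF2 and, in rodents, to sex hormones and the sex-specific pattern of growth hormone.

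The number of reads on genes ran from 6794935 to 23295028 per mouse, with the fewest in the older Titan mice, at 6794935 to 11464698, against 12209454 to 22166755 in the younger controls, 10465526 to 23295028 in the younger Titan mice and 7806106 to 18127024 in the older controls. Levels are given as CPM, a gene's counts scaled to a common library size by the TMM method, as mean ± SD over the mice of a group (n = 5), and per-mouse values are listed in the order of replicates 1 to 5. Of the 20 libraries, 5 had more than 25% of all their reads, unmapped ones included, outside genes, up to 31.0%, against a median of 17.5% over all libraries. They were replicate 4 of the 11-week-old controls, replicate 1 of the 11-week-old Titan mice, replicate 4 of the 19–21-week-old controls and replicates 3 and 4 of the 19–21-week-old Titan mice. Of the mapped reads alone, these 5 had 34.7% to 41.96% outside genes and the other 15 libraries 18.4% to 29.8%. Together the 48 genes took 1.20% ± 0.0999 of the reads on genes in the younger controls and 1.06% ± 0.0551 in the younger Titan mice. The shares were 1.15% ± 0.0619 and 1.01% ± 0.0933 in the older controls and Titan mice.

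Levels of single genes were ranked per kilobase of exon not shared with another gene, as the mean CPM per kb over the 20 mice. Sums over several genes, and the share of a gene in such a sum, used CPM without division by length, so longer genes weigh more in them. The microsomal transferase *Mgst1* was the most abundant, at 1345 CPM per kb, followed by *Gstm1* at 586, *Ugt2b36* at 433, *Ugt2b5* at 363, *Ugt2b1* at 353 and *Gsta3* at 265. Reads that fit several genes were not counted, so genes that share sequence can be understated here. Of the 50-base words of their transcripts, 99.7% for *Ugt2b36* but 58.3% for *Ugt2b5*, 50.2% for *Gsta2* and 45.7% for *Gstp2* occur in no other gene. The leading sulfotransferase was *Sult2a8*, an enzyme active on bile acids and steroids, at 223 CPM per kb. At the other end, *Sult2a7* (0.957), *Gstp2* (0.743) and *Gsto2* (0.204) were each below 1 CPM per kb. Both genes that mark the set were detected in every mouse. *Gsta4*, which conjugates the lipid peroxidation product 4-hydroxynonenal, stood at 54.1 CPM per kb and *Gsta2*, an alpha-class enzyme with peroxidase activity, at 8.92.

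The first question was which of these genes differed between Titan and control livers at each age. At 11 weeks, 8 of the 47 genes tested rose in Titan mice and 15 fell, which is 48.9% of them. The background at this age was 14.9% of all 13783 tested genes past the same threshold in either direction, 7.23% higher and 7.69% lower. At 19–21 weeks, 1 gene rose and 14 fell, or 31.9%, against a background of 9.12% (4.24% higher and 4.88% lower). *Gsto2* was not tested, because its reads were too few for the filter on low counts. The threshold was an adjusted p of 0.05 in the quasi-likelihood test of edgeR over all tested genes, and fold changes are given on the log2 scale as Titan minus control with their standard error (SE). The median log2 fold change over the 47 genes was -0.06 at 11 weeks and -0.37 at 19–21 weeks, while that over all tested genes was -0.02 and 0.01. Titan and control values did not overlap for 16 of the 47 genes at 11 weeks, or 34.0%, against 11.9% of all tested genes, and for 11 at 19–21 weeks, or 23.4%, against 7.63%. Of these, 15 and 10 were among the genes called. Among the tested genes, 3 reached the read limit mainly through the line in which they were higher, *Gstp2* and *Gsta1* through controls and *Sult2a7* through Titan mice, so that a difference followed in part from the limit. Without these 3, 7 genes were higher and 14 lower of 44 at 11 weeks, and 1 was higher and 13 lower at 19–21 weeks. In bulk liver RNA, a lower level from fewer cells of a type and one from less RNA per cell cannot be told apart. Without the 5 libraries with more than 25% of reads outside genes, a choice made after seeing the data, 6 genes rose and 9 fell at 11 weeks, and 1 rose and 9 fell at 19–21 weeks. The number that rose at 11 weeks was 5 without any 1 of control replicates 3, 4 and 5 or Titan replicates 1, 3 and 5 of that age.

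Of the genes called, 12 were lower in Titan mice at both ages, namely *Gstp2*, which reached the read limit through controls alone, and *Gsta2*, *Gsta4*, *Gstm5*, *Gstm6*, *Gstm7*, *Gstt2*, *Sult1b1*, *Sult1d1*, *Sult5a1*, *Ugt2a3* and *Ugt2b1*. A single gene, *Ugt2b37*, was higher at both. The share of all tested genes called in the same direction at both ages was not counted. The 5 libraries with the largest shares of reads outside genes were also left out, a choice made after seeing the data. Without them, *Gsta2*, *Gsta4*, *Gstt2* and *Sult1d1* kept their lower calls at both ages, and *Ugt2b37* kept its higher calls. The other genes named here did not keep both calls. Each age has its own controls, but all groups shared a common estimate of the spread per gene, so the comparisons are not fully separate. A further 7 genes were called higher at 11 weeks alone, 3 lower at 11 weeks alone and 2 lower at 19–21 weeks alone, and the remaining 22 passed the threshold at neither age.

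**Figure D1:**
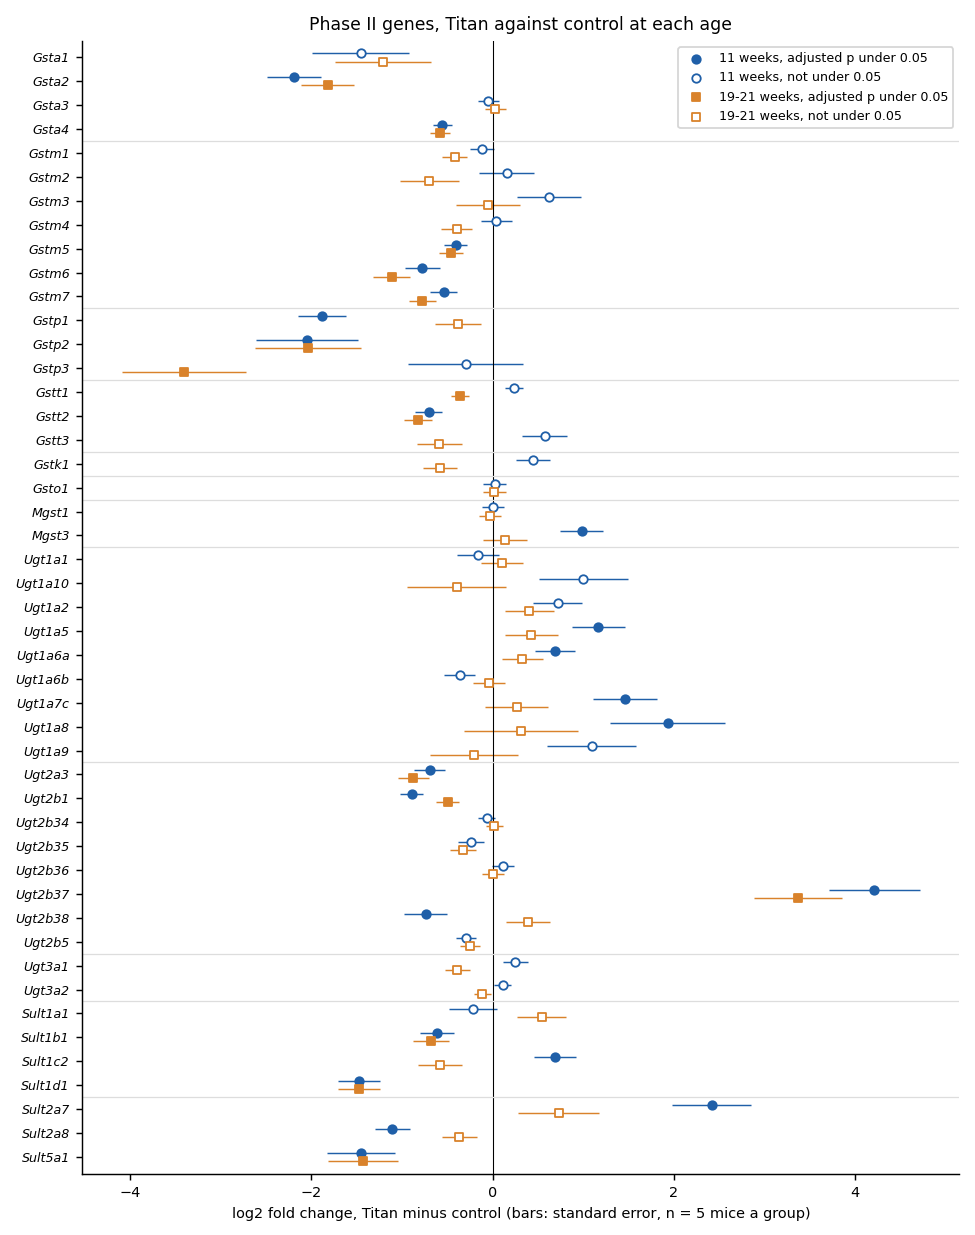
Log2 fold change of each tested phase II gene (Titan minus control, horizontal axis) at 11 weeks (blue circles) and 19–21 weeks (orange squares), with the standard error as bars, ordered by family. Filled symbols have an adjusted p under 0.05, and *Ugt2b37* at 4.21 and 3.37 lies far to the right of all other genes.

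Among the alpha-class transferases, *Gsta2* and *Gsta4* fell in Titan mice at both ages and *Gsta3* passed the threshold at neither. *Gsta2* (chr9:78331018-78355788) was measured at 7.09, 13.5, 19.8, 17.4 and 17.9 CPM in 11-week-old controls and at 2.48, 3.59, 3.94, 3.77 and 2.98 in Titan mice of that age. Among the older mice the values were 13.9, 16.4, 29.1, 10.9 and 21.1 in controls and 5.03, 6.06, 4.62, 7.67 and 2.72 in Titan mice. Every Titan mouse lay below every control of its age, and the lowest control was replicate 1 of the younger group. Its level was 4.57-fold lower in Titan mice at 11 weeks (log2 fold change -2.19, SE 0.30, edgeR adjusted p = 3.81e-05) and 3.52-fold lower at 19–21 weeks (-1.82, SE 0.29, adjusted p = 0.000483). *Gsta2* shares much of its sequence with *Gsta1*. Only 50.2% of its 50-base words and 9.5% of those of *Gsta1* occur in no other gene, and reads that fit several genes were not counted. *Gsta1* itself was at 1.75 ± 1.07 CPM in controls and 0.673 ± 0.427 in Titan mice at 11 weeks and did not pass the threshold at either age (edgeR adjusted p = 0.0741 and 0.166). Summed with *Gsta1* and the related *Gm3776*, the log2 ratio of the Titan to the control mean was -1.90 at 11 weeks and -1.65 at 19–21 weeks.

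The difference was smaller for *Gsta4*. The gene (chr9:78182774-78209349) was at 68.8, 71.7, 97.9, 76.5 and 76.6 CPM in 11-week-old controls and 45.8, 60.0, 49.9, 52.1 and 59 in Titan mice, then at 84, 90.8, 105, 73 and 72.9 in the older controls and 51.4, 59.2, 59.1, 60.6 and 55.7 in the older Titan mice. The groups did not overlap at either age, although the highest 11-week-old control, replicate 3, stood apart from the other 4. *Gsta4* was 1.47-fold lower at 11 weeks (log2 fold change -0.55, SE 0.11, edgeR adjusted p = 0.00147) and 1.49-fold lower at 19–21 weeks (-0.58, SE 0.11, adjusted p = 0.00219). *Gsta3*, which made up 93.5% of the summed alpha-class level, was at 1188 ± 228 and 1150 ± 48.5 CPM at 11 weeks in the control and Titan groups and at 1124 ± 157 and 1147 ± 116 at 19–21 weeks. Its log2 fold change was -0.05 (SE 0.12) and 0.03 (SE 0.12), and the values of both lines overlapped.

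The 7 mu-class genes lie in 1 run on chr3:107895821-108044894, in the order *Gstm5*, *Gstm7*, *Gstm6*, *Gstm3*, *Gstm2*, *Gstm1* and *Gstm4*. The first 3 of this order were the ones called lower in Titan mice at both ages, and none of the other 4 passed the threshold at either age. *Gstm6* had the largest difference. It was at 62, 72, 110.4, 106 and 72.8 CPM in 11-week-old controls against 41, 49.9, 46.1, 59.6 and 51.5 in Titan mice, and at 80.4, 122, 67.4, 96.6 and 70.0 against 25.7, 45.3, 31.2, 47.6 and 50.3 at 19–21 weeks. All Titan mice were below all controls of their age, with fold changes of -0.77 (SE 0.20, edgeR adjusted p = 0.0102) and -1.11 (SE 0.20, adjusted p = 0.00131). *Gstm7* was at 38, 47.2, 53.2, 67.4 and 50.1 CPM in the younger controls and 35.8, 33.4, 36.3, 37.4 and 33.9 in the younger Titan mice. The older controls had 51.9, 62.4, 45, 55.6 and 51.4 and the older Titan mice 19.7, 37.8, 32.1, 27.2 and 38.1. Again there was no overlap at either age, although the lowest younger control, replicate 1, was within 1 CPM of the highest Titan mouse. The log2 fold change of *Gstm7* was -0.54 (SE 0.15, edgeR adjusted p = 0.0175) and then -0.78 (SE 0.15, adjusted p = 0.0026). Without replicate 4 of the 11-week-old controls its younger call was lost (adjusted p = 0.0630).

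*Gstm5*, a low-abundance member of the class, was 9.65 ± 1.32 CPM in controls and 7.3 ± 0.713 in Titan mice at 11 weeks, and 8.57 ± 1.37 and 6.22 ± 0.932 at 19–21 weeks, with no overlap at either age. Its fold changes were -0.41 (SE 0.13, edgeR adjusted p = 0.0336) and -0.45 (SE 0.13, adjusted p = 0.035). These calls were close to the threshold. The younger one was lost without control replicate 4 or 5 or Titan replicate 1, 2 or 3 (edgeR adjusted p 0.0671 to 0.102), and the older one without control replicate 1, 4 or 5 or Titan replicate 2, 3 or 4 (0.0507 to 0.0890). *Gstm1*, the enzyme that carries 76.2% of the summed mu-class level, was 904 ± 92.9 CPM in controls and 831 ± 136 in Titan mice at 11 weeks and 982 ± 98.1 against 734 ± 147 at 19–21 weeks. At the later age its groups did not overlap, but the adjusted p was 0.053 for a log2 fold change of -0.42 (SE 0.13). *Gstm3* ranged from 47.5 to 133 CPM in the younger Titan mice, and its fold changes of 0.62 (SE 0.35) and -0.05 (SE 0.36) did not pass. The 2 further members, *Gstm2* (0.16 and -0.70) and *Gstm4* (0.04 and -0.40), had adjusted p values of 0.191 and 0.167 at 19–21 weeks.

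The 3 pi-class genes differed in when they were called. *Gstp1*, the main pi-class enzyme, at chr19:4035407-4037985, was at 163, 120.1, 118, 187 and 206 CPM in 11-week-old controls and 48, 28.4, 64.7, 44.1 and 30.5 in Titan mice. In the older groups the controls had 114, 152, 143, 72.1 and 104 and the Titan mice 138, 73.8, 93.7, 51.1 and 95.6. The younger groups were far apart, and the older groups overlapped. *Gstp1* was 3.69-fold lower at 11 weeks (log2 fold change -1.88, SE 0.26, edgeR adjusted p = 6.0e-05), while at 19–21 weeks the difference was -0.38 (SE 0.26, adjusted p = 0.388). *Gstp2* was near the read limit, with 22, 5, 23, 8 and 28 reads in the younger controls, 2, 3, 8, 3 and 4 in the younger Titan mice, 8, 18, 47, 13 and 9 in the older controls and 8, 1, 3, 2 and 3 in the older Titan mice. Values overlapped at both ages. The limit of 10 reads was reached in 6 control mice and in no Titan mouse, whose highest count was 8, so the gene is in the set through its controls alone. Its log2 fold changes, -2.05 (SE 0.57) and -2.04 (SE 0.58), are therefore a description, although both are in the counts of genes called lower.

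*Gstp1* and *Gstp2* share 33.7% of the 50-base words of *Gstp1*, so only part of each gene could be counted. Their summed CPM gave a log2 ratio of -1.88 at 11 weeks and -0.39 at 19–21 weeks. Upstream of the RefSeq start, both genes hold the AP-1 element TGAGTCA, whose other strand reads TGACTCA, inside an identical 30-base site. The element occurs in the 250 bases before the start of 4.46% of all 32851 RefSeq promoters and of 4 of the 43 phase II genes found in that table (*Gstm5*, *Gstp1*, *Gstp2* and *Ugt2b37*). The sites are shown because this stretch is the same in both genes. They lie on the minus strand of GRCm38 at chr19:4037968-4037997 and chr19:4042292-4042321, with the element in capitals, and the element begins 74 and 89 bases before the start. In the GENCODE annotation the last 18 bases of the *Gstp1* site already belong to an exon, and none of the *Gstp2* site.
Gstp1: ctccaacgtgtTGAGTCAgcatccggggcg
Gstp2: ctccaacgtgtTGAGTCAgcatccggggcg

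*Gstp3* was at 4.02 ± 0.988 CPM in controls and 3.24 ± 0.92 in Titan mice at 11 weeks, with a log2 fold change of -0.30 (SE 0.64) and overlapping values. In the older controls it spread over 3.17, 16.4, 2.81, 11.7 and 68.5 CPM, against 0.68, 3.13, 2.19, 1.77 and 1.7 in the older Titan mice. Replicate 5 of the controls was the highest by far, and replicate 3 of the controls lay within the range of the Titan mice. The fold change at 19–21 weeks was -3.41 (SE 0.68, edgeR adjusted p = 0.00306). Without that control mouse it was -2.12 (adjusted p = 0.00691).

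Of the theta class, *Gstt2* fell at both ages. It was at 38.1, 70.6, 61.9, 62.7 and 46.3 CPM in 11-week-old controls and 38.9, 34.9, 28.7, 29.9 and 38.8 in Titan mice, and at 39.5, 58.6, 68.6, 53.9 and 61.3 against 31.5, 33, 30.5, 32.6 and 32 at 19–21 weeks. Control replicate 1 lay within the Titan range at 11 weeks, and no values overlapped at 19–21 weeks. The log2 fold changes were -0.71 (SE 0.15, edgeR adjusted p = 0.00256) and -0.82 (SE 0.15, adjusted p = 0.00166). *Gstt1*, which conjugates small halogenated compounds, differed at the older age alone, at 168 ± 15.2 CPM in controls and 131 ± 13.7 in Titan mice (-0.36, SE 0.10, adjusted p = 0.0255). At 11 weeks it was at 149.9 ± 19.1 and 176 ± 17.9 CPM (0.24, SE 0.10, adjusted p = 0.12). The call at 19–21 weeks was lost without control replicate 1, 2 or 4 or Titan replicate 1 or 4 (edgeR adjusted p 0.05004 to 0.0681). *Gstt3* had differences of 0.57 (SE 0.24) and -0.59 (SE 0.25) with opposite signs, neither past the threshold (adjusted p = 0.125 and 0.153).

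Among the remaining glutathione transferases *Mgst3* alone was called. *Mgst1*, a membrane-bound enzyme of the endoplasmic reticulum and mitochondria, was at 2810 ± 308 and 2813 ± 221 CPM at 11 weeks in the control and Titan groups and at 2626 ± 250.1 and 2583 ± 500.2 at 19–21 weeks, with log2 fold changes of 0.00 (SE 0.12) and -0.02 (SE 0.12). *Mgst3*, a microsomal enzyme with glutathione peroxidase activity, rose at 11 weeks, from 5.31, 6.75, 8.37, 6.58 and 6.41 CPM in controls to 11.3, 15.9, 14.7, 12.4 and 12.2 in Titan mice without overlap (0.98, SE 0.24, edgeR adjusted p = 0.00651). In the older mice it was at 8.97 ± 3.04 and 9.87 ± 3.9 CPM and overlapped (adjusted p = 0.775). *Gstk1*, a mitochondrial and peroxisomal enzyme, was 67.9 ± 11.3 CPM in controls and 92.6 ± 16.4 in Titan mice at 11 weeks and 93.5 ± 31.7 against 62.3 ± 12 later. Its fold changes of 0.45 (SE 0.19) and -0.58 (SE 0.19) had opposite signs, and neither passed the threshold (adjusted p = 0.123 and 0.0595). *Gsto1*, a thioltransferase, had fold changes of 0.03 (SE 0.13) and 0.02 (SE 0.13). Its untested neighbour *Gsto2* had 3, 9, 10, 10 and 14 reads in the younger controls, 7, 5, 1, 4 and 5 in the younger Titan mice, 11, 10, 9, 3 and 15 in the older controls and 1, 2, 1, 5 and 1 in the older Titan mice.

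**Figure D2:**
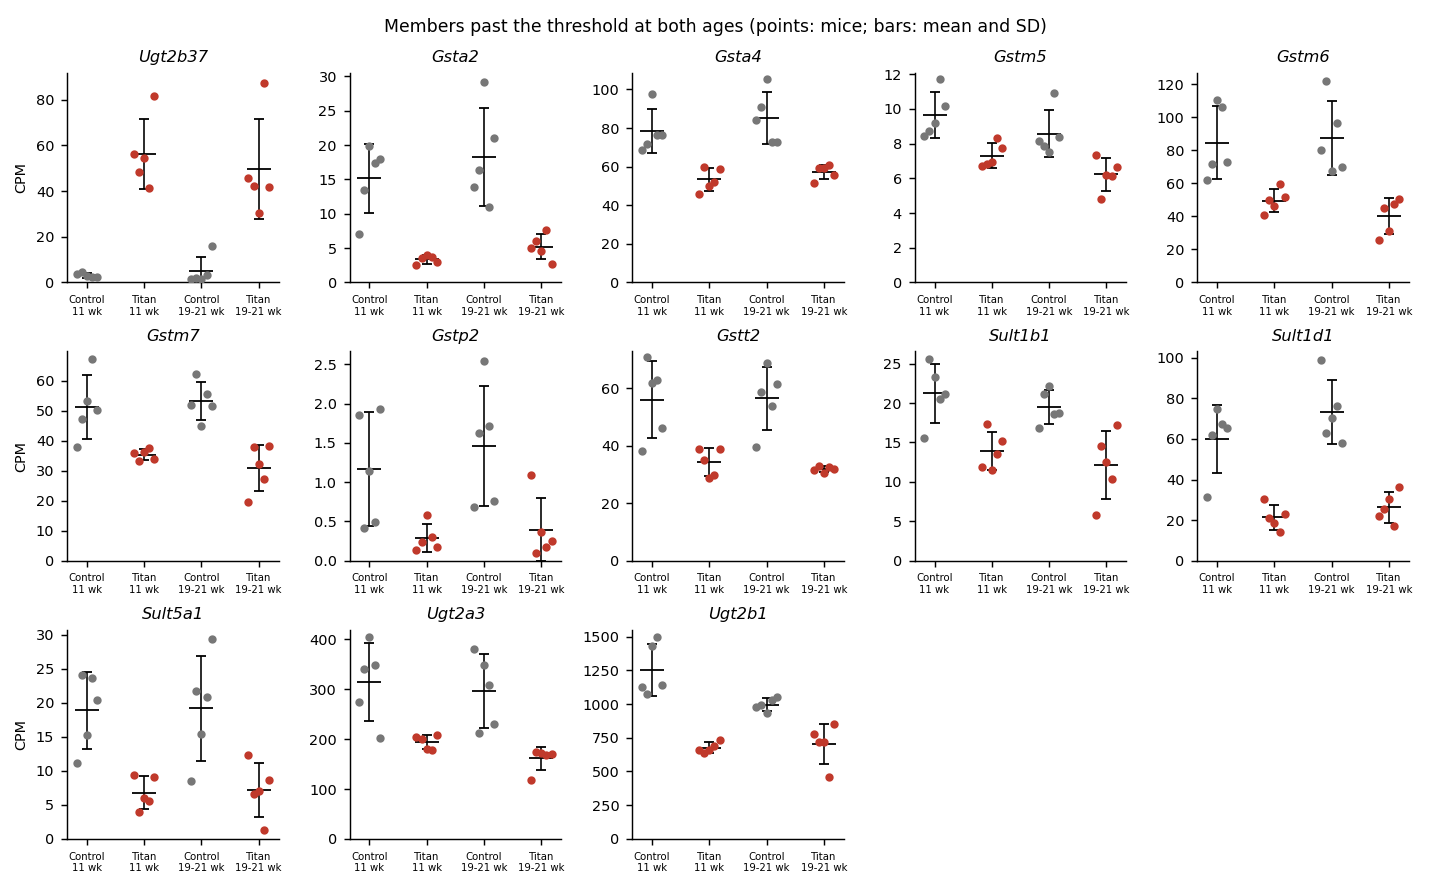
Level of the 13 genes called at both ages in each mouse (CPM, vertical axis from 0), with control mice in grey and Titan mice in red and the mean ± SD of each group. *Ugt2b37* is higher in every Titan mouse than in every control of its age, and the other 12 genes have lower Titan means at both ages.

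The 9 Ugt1a members, whose products include the bilirubin-conjugating enzyme UGT1A1, are encoded at chr1:88055388-88220002, each with its own first exon and with shared later exons. Reads that overlap several genes were not counted, and between 20.2% and 47.9% of the 50-base words of each member occur in no other gene. At 11 weeks, 4 of the 9 rose in Titan mice and none fell, with a median log2 fold change of 1.004 over the 9, and at 19–21 weeks none passed the threshold, with a median of 0.27. Over all tested genes, 7.23% were called higher and 7.69% lower at 11 weeks. *Ugt1a5* was at 14.3, 30.8, 41.9, 20.1 and 19.3 CPM in 11-week-old controls and 55.2, 62.9, 61.1, 48.2 and 57.7 in Titan mice, without overlap (1.17, SE 0.29, edgeR adjusted p = 0.0085). *Ugt1a7c* was at 4.56, 1.5, 2.97, 2.32 and 4.07 CPM against 10.7, 6.41, 10.1, 4.67 and 10.3, and its lowest Titan mouse was just above its highest control (1.46, SE 0.35, adjusted p = 0.00651). In the older mice *Ugt1a5* was at 25.3 ± 4.45 and 33.9 ± 16.6 CPM and *Ugt1a7c* at 6.49 ± 3.42 and 7.69 ± 2.7, and both overlapped.

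Both other Ugt1a calls overlapped between the groups and were close to the threshold. *Ugt1a6a*, which acts on planar phenols, was 8.55 ± 3.15 CPM in younger controls and 13.7 ± 2.87 in younger Titan mice (0.69, SE 0.22, edgeR adjusted p = 0.0421). It was lost without control replicate 2, 3, 4 or 5 or Titan replicate 1, 3, 4 or 5 (adjusted p 0.0513 to 0.103). *Ugt1a8* was 1.45 ± 1.24 against 5.34 ± 2.46 CPM (1.93, SE 0.63, adjusted p = 0.0442). This call was lost without control replicate 2, 3, 4 or 5, Titan replicate 1, 2, 3 or 5, or replicate 2, 3 or 5 of the older Titan mice, whose spread enters the same fit (0.0506 to 0.105). The most abundant members of the group did not pass. *Ugt1a1* was at 143 ± 53.9 and 128 ± 24.4 CPM at 11 weeks (-0.16, SE 0.23) and at 145 ± 37.8 and 156 ± 27.4 at 19–21 weeks (0.11, SE 0.23). *Ugt1a9* ranged over 52.5 to 169.8 CPM in younger controls and 139 to 316 in younger Titan mice (1.10, SE 0.49, adjusted p = 0.148). The scarcer *Ugt1a2* and *Ugt1a10* had differences of 0.72 and 1.004 at 11 weeks, and *Ugt1a6b* one of -0.36 (edgeR adjusted p = 0.0819, 0.197 and 0.181).

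The gene with the largest log2 fold change of all 47 at 11 weeks, and the only one called higher at both ages, was *Ugt2b37*, one of the Ugt2b genes at chr5:86889767-87569027. In this interval 10 members lie in the order *Ugt2b34*, *Ugt2b1*, *Ugt2b35*, *Ugt2b36*, *Ugt2b5*, *Ugt2b37*, *Ugt2a3*, *Ugt2b38*, *Sult1b1* and *Sult1d1*. UGT2B enzymes glucuronidate steroids, bile acids and many drugs. *Ugt2b37* was the only one of the 10 that rose at both ages, while *Ugt2b1*, *Ugt2a3*, *Sult1b1* and *Sult1d1* fell at both. The 120 bases upstream of 5 of these genes, which lie beyond any annotated exon of the gene, are printed to set *Ugt2b37* beside neighbours that did not move with it. All are on the minus strand of GRCm38, and the capitals mark the nuclear receptor element AGGTCA, whose other strand reads TGACCT.
Ugt2b37, chr5:87254805-87254924: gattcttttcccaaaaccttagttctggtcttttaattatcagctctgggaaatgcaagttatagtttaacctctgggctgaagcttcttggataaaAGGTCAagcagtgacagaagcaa
Ugt2b38, chr5:87424204-87424323: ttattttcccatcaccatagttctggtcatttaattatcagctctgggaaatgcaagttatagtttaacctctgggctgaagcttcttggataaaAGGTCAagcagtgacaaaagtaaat
Ugt2b5, chr5:87140341-87140460: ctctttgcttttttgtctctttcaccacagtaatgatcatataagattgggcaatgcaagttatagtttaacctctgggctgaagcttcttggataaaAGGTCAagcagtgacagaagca
Ugt2b36, chr5:87092556-87092675: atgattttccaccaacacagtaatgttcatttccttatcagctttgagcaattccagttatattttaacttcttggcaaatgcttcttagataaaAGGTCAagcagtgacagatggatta
Ugt2b1, chr5:86926531-86926650: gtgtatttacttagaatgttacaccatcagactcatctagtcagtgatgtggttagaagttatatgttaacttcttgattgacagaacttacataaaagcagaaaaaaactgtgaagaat

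Aligned with that of *Ugt2b37*, these stretches were identical in 91.0% of the aligned columns for *Ugt2b38*, 76.6% for *Ugt2b5*, 75.0% for *Ugt2b36* and 57.1% for *Ugt2b1*. The first 4 share the unbroken run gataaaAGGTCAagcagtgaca, and the stretch of *Ugt2b1* does not hold it. The element occurs in the 250 bases before the start of 14% of all promoters and of 10 of the 43 phase II genes found in the table. *Ugt2b37* also shares transcript sequence with its neighbours, and 81.7% of its 50-base words occur in no other gene.

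*Ugt2b37* was at 3.88, 4.41, 2.62, 2.32 and 2.28 CPM in 11-week-old controls and 56.2, 48.2, 54.4, 41.5 and 81.8 in Titan mice of that age. At 19–21 weeks the controls were at 1.72, 1.81, 1.46, 3.43 and 15.8 and the Titan mice at 45.8, 42.4, 30.6, 87.2 and 41.8. Every Titan mouse was above every control, although replicate 5 of the older controls stood well above the other 4. The level was 18.6-fold higher in Titan mice at 11 weeks (log2 fold change 4.21, SE 0.50, edgeR adjusted p = 9.56e-06) and 10.4-fold higher at 19–21 weeks (3.37, SE 0.49, adjusted p = 0.000173). Without replicate 5 of the older controls the later log2 fold change was 4.65 (adjusted p = 8.39e-08).

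The neighbours of *Ugt2b37* differed among themselves. *Ugt2b1*, one of the most abundant members, was at 1127, 1074, 1427, 1500 and 1139 CPM in 11-week-old controls and 656, 637, 659.9, 692 and 735 in Titan mice. In the older groups it was at 976, 989, 931, 1029 and 1051 and 779, 719, 717, 461 and 854. No values overlapped at either age, and the fold changes were -0.89 (SE 0.13, edgeR adjusted p = 7.16e-05) and -0.50 (SE 0.13, adjusted p = 0.0171). *Ugt2a3*, which acts on bile acids, was 315 ± 77.6 CPM in younger controls and 194 ± 13.8 in younger Titan mice (-0.69, SE 0.17, adjusted p = 0.0077), where 1 control lay within the Titan range. In the older mice it was 382, 213, 349, 309 and 230.3 in controls against 119, 175, 173, 169 and 171 without overlap (-0.88, SE 0.17, adjusted p = 0.00256). *Ugt2b38*, the closest relative of *Ugt2b37* in the stretches above, went the other way at 11 weeks, at 21.8, 26.2, 23.9, 19.9 and 27.5 CPM in controls and 13.4, 15.9, 16.2, 10.5 and 15.3 in Titan mice (-0.74, SE 0.24, adjusted p = 0.0397). Although those groups did not overlap, its call was lost without control replicate 2, 3 or 5 or any of the 5 Titan mice (edgeR adjusted p 0.0571 to 0.0911). Among the older mice *Ugt2b38* was 12.1 ± 4.36 in controls and 15.8 ± 5.09 in Titan mice (0.39, SE 0.25, adjusted p = 0.346).

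*Ugt2b36* and *Ugt2b5*, the most abundant of the group per kb, passed at neither age. *Ugt2b36* was 857 ± 89.8 CPM in controls and 932 ± 95.7 in Titan mice at 11 weeks (0.12, SE 0.12), and 0.01 (SE 0.12) separated the lines at 19–21 weeks. *Ugt2b5* was 766 ± 86.2 against 625 ± 56.7 CPM at 11 weeks, with no overlap but an adjusted p of 0.0875 (-0.29, SE 0.11). Because *Ugt2b5* is far above *Ugt2b37*, the summed CPM of *Ugt2b37*, *Ugt2b38* and *Ugt2b5* had a log2 ratio of -0.19 at 11 weeks and -0.13 at 19–21 weeks. *Ugt2b34* and *Ugt2b35* had differences of -0.06 and -0.24 at 11 weeks and of 0.02 and -0.32 at 19–21 weeks, none past the threshold. The Ugt3a enzymes use UDP-N-acetylglucosamine or UDP-glucose as the sugar donor. *Ugt3a2* had fold changes of 0.11 (SE 0.09) and -0.11 (SE 0.09), and *Ugt3a1* of 0.25 (SE 0.14) and -0.39 (SE 0.14), none of which passed.

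Of the 7 sulfotransferases, 6 were called at 11 weeks (2 higher, 4 lower) and 3 at 19–21 weeks (all lower), against 14.9% and 9.12% of all tested genes. Among the 6, *Sult2a7* reached the read limit mainly through Titan mice. The call of *Sult1c2* was lost without any 1 of 13 mice and that of *Sult1b1* without any 1 of 7. *Sult1d1*, a cytosolic enzyme active on catecholamines and eicosanoids, lies at the end of the chromosome 5 run. It was at 31.2, 61.8, 74.7, 67.1 and 65.5 CPM in 11-week-old controls and 30.5, 21.3, 18.5, 13.9 and 23.2 in Titan mice, and at 98.9, 63, 70.4, 76 and 58.1 against 21.9, 25.7, 30.5, 17 and 36.5 at 19–21 weeks. At 11 weeks the lowest control, replicate 1, stood just above the highest Titan mouse, and at both ages there was no overlap. *Sult1d1* was 2.79-fold lower at 11 weeks (log2 fold change -1.48, SE 0.23, edgeR adjusted p = 0.000189) and 2.78-fold lower at 19–21 weeks (-1.48, SE 0.24, adjusted p = 0.000435). It is 1 of 9 members, among the 43 found in the promoter table, whose 250 bases before the start hold GTTAAT, the core of the element bound by the liver factor HNF1, or ATTAAC on the other strand, as do 6.43% of all promoters. Of these 9, *Ugt2a3* was also called lower at both ages, *Ugt1a6a* was called higher at 11 weeks, and *Gsta3*, *Sult1a1*, *Ugt1a1*, *Ugt1a9*, *Ugt1a10* and *Ugt3a1* passed at neither age. The sequence is printed because *Sult1d1* had the lowest log2 fold change of the 7 sulfotransferases at both ages. It covers the 120 bases before the first annotated exon, on the minus strand of GRCm38, with the core in capitals.
Sult1d1, chr5:87569028-87569147: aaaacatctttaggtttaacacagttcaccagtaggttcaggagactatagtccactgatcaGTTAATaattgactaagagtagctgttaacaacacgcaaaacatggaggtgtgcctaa

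Its neighbour *Sult1b1*, which sulfates thyroid hormone and small phenols, was 21.2 ± 3.72 CPM in younger controls and 13.9 ± 2.4 in younger Titan mice (-0.61, SE 0.19, edgeR adjusted p = 0.0332). The older groups had 19.5 ± 2.15 and 12.1 ± 4.33 CPM (-0.68, SE 0.20, adjusted p = 0.0322), and values overlapped at both ages. The younger call was lost without control replicate 2, 3, 4 or 5 or Titan replicate 1, 3 or 4 (adjusted p 0.0501 to 0.0949), and the older one without control replicate 2 or 3 or Titan replicate 1, 3 or 4 (0.0508 to 0.0830). *Sult5a1* was at 11.1, 24.2, 15.2, 23.7 and 20.3 CPM in 11-week-old controls and 9.37, 3.99, 5.98, 5.56 and 9.16 in Titan mice without overlap. In the older mice, control replicate 1 lay within the Titan range, with 8.49, 21.8, 15.4, 20.8 and 29.4 in controls and 12.4, 6.64, 7.05, 1.35 and 8.67 in Titan mice. Its fold changes were -1.45 (SE 0.37, edgeR adjusted p = 0.0108) and -1.43 (SE 0.39, adjusted p = 0.0231), and the later call was lost without control replicate 5 (0.0646).

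*Sult2a8* made up 98.1% of the summed level of the sulfotransferases outside the Sult1 group. It was at 1066, 967, 917, 998 and 726 CPM in 11-week-old controls and 349.9, 292, 464, 656 and 409 in Titan mice, which did not overlap (2.15-fold lower, log2 fold change -1.11, SE 0.19, edgeR adjusted p = 0.000509). At 19–21 weeks it was at 1110, 917, 711, 844 and 826 against 915, 693, 639, 447 and 721, with overlap (-0.37, SE 0.19, adjusted p = 0.25). Next to it on chromosome 7, the scarce *Sult2a7* was higher at 11 weeks, from 6, 4, 12, 4 and 6 reads in controls to 45, 57, 8, 12 and 51 reads in Titan mice, or 0.418 ± 0.138 to 2.29 ± 1.54 CPM (2.42, SE 0.44). It reached 10 reads in 8 Titan and 3 control mice over both ages, so its call at 11 weeks is a description. Titan replicate 3 lay within the control range. Among the older mice *Sult2a7* was 0.819 ± 0.266 against 1.36 ± 0.474 CPM (0.73, SE 0.44, adjusted p = 0.331). *Sult1c2* was called higher at 11 weeks (3.68 ± 1.26 against 5.85 ± 1.28 CPM, 0.69, SE 0.23, adjusted p = 0.0495), with overlap. This call was lost without any 1 of 13 mice, which were control replicates 1, 3, 4 and 5 and Titan replicates 1, 2, 3 and 5 at 11 weeks, and control replicates 1, 2, 4 and 5 and Titan replicate 4 at 19–21 weeks (edgeR adjusted p 0.0531 to 0.134). *Sult1a1*, the main phenol sulfotransferase, was 127 ± 59.7 and 109 ± 16.9 CPM at 11 weeks in the control and Titan groups and 81.2 ± 25.4 and 118 ± 26.6 at 19–21 weeks, with no call.

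**Figure D3:**
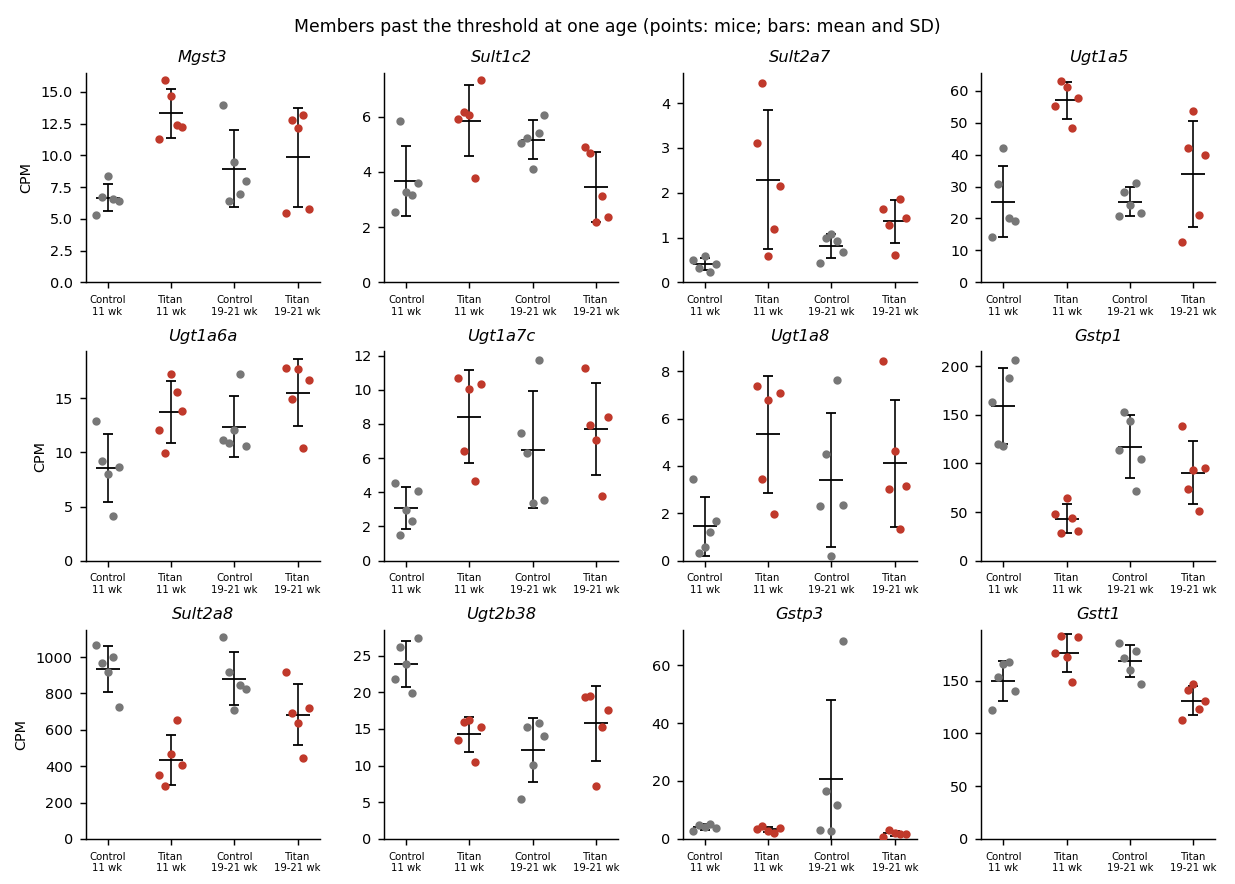
Level of the 12 genes called at 1 age alone in each mouse (CPM, vertical axis from 0), with control mice in grey, Titan mice in red and mean ± SD, drawn down to 0. *Gstp1* and *Sult2a8* are separate at 11 weeks and overlap at 19–21 weeks, and *Gstp3* in the older controls is spread by replicate 5 at 68.5 CPM.

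The second question was whether levels changed between the ages within a line. In Titan mice 1 of the 47 genes rose and 1 fell from 11 to 19–21 weeks, against 1.25% of all tested genes called in either direction, 0.486% higher and 0.762% lower. *Gstp1* rose from 43.1 ± 14.7 to 90.5 ± 32.1 CPM (1.07, SE 0.26, edgeR adjusted p = 0.0476), with overlap between the ages. *Gstt1* fell from 177, 193, 173, 149 and 192 CPM in the younger Titan mice to 113, 141, 147, 124 and 131 in the older ones, without overlap (-0.43, SE 0.10, adjusted p = 0.0376). The call for *Gstp1* was lost without any 1 of 15 mice, namely all 5 younger controls, younger Titan replicates 1, 2 and 5, older control replicates 1, 3 and 5 and older Titan replicates 1, 2, 3 and 5 (edgeR adjusted p 0.0501 to 0.163). That for *Gstt1* was lost without younger Titan replicate 1, 2 or 5 or older Titan replicate 1, 4 or 5 (0.0654 to 0.144). In controls no member passed the threshold in edgeR, where 0.0871% of all tested genes were called, 0.0435% higher and 0.0435% lower. DESeq2 called 1 member in controls, *Ugt2b38*, lower at the later age (log2 fold change -0.98, adjusted p = 0.0213). In Titan mice DESeq2 called *Gstp1* (1.05, adjusted p = 0.00422) and *Sult2a8* (0.64, adjusted p = 0.0335) higher at the later age. It called *Gstt1* (-0.44, adjusted p = 0.00307), *Gstm2* (-1.11, 0.0200), *Ugt3a1* (-0.53, 0.0152) and *Sult1c2* (-0.80, 0.0378) lower. Of these, *Sult2a8*, *Gstm2*, *Ugt3a1* and *Sult1c2* did not pass in edgeR (adjusted p 0.0674 to 0.114).

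The difference between the lines in their age effect was tested as an interaction. No member passed in edgeR, where a single gene of all 13783 was called (0.00726%). Without replicate 4 of the younger Titan mice, *Gstt1* passed (edgeR adjusted p = 0.0411). DESeq2 called 4 members, *Gstp1* (1.49, adjusted p = 0.0132), *Gstt1* (-0.61, adjusted p = 0.0134), *Gstk1* (-1.05, adjusted p = 0.0372) and *Sult1c2* (-1.29, adjusted p = 0.0374). In edgeR their adjusted p was between 0.169 and 0.216. A gene called at 11 weeks and not at 19–21 weeks, or the reverse, was thus not shown by the main test to differ between the ages in its response.

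Summed over each family, Titan and control ranges did not overlap for 5 of the 12 families, each at 1 age alone. Of single tested genes, 11.9% did not overlap at 11 weeks and 7.63% at 19–21 weeks, and no such share was counted for other sums. The family sums are a description without a test, and abundant members carry most of each. *Gstp1* held 92.5% of the pi-class sum and *Sult2a8* 98.1% of the non-Sult1 sum, and both genes were already without overlap at 11 weeks. The pi class summed to 164 ± 39.7 CPM in 11-week-old controls and 46.6 ± 14.2 in Titan mice, a log2 ratio of -1.82, and the non-Sult1 sulfotransferases to 954 ± 127 and 443 ± 138, a log2 ratio of -1.11. The Ugt1a sum was higher in Titan mice at 11 weeks, at 332 ± 30.9 and 489 ± 60.5 CPM (0.56), and stood at 389 ± 67.3 and 393 ± 40.3 at 19–21 weeks (0.01). In the older mice the mu class was at 1276 ± 98.3 CPM in controls and 927 ± 188 in Titan mice (-0.46), and the theta class at 250.4 ± 11.3 and 180.1 ± 17.9 (-0.48). The alpha-class, Mgst and Gsto sums, carried by *Gsta3*, *Mgst1* and *Gsto1*, had log2 ratios between -0.09 and 0.02 at both ages. The Ugt2 sum, the largest in CPM not divided by length, was at 4201 ± 451 and 3393 ± 250 CPM at 11 weeks (-0.31) and 3905 ± 396 and 3341 ± 367 at 19–21 weeks (-0.23), with overlap.

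**Figure D4:**
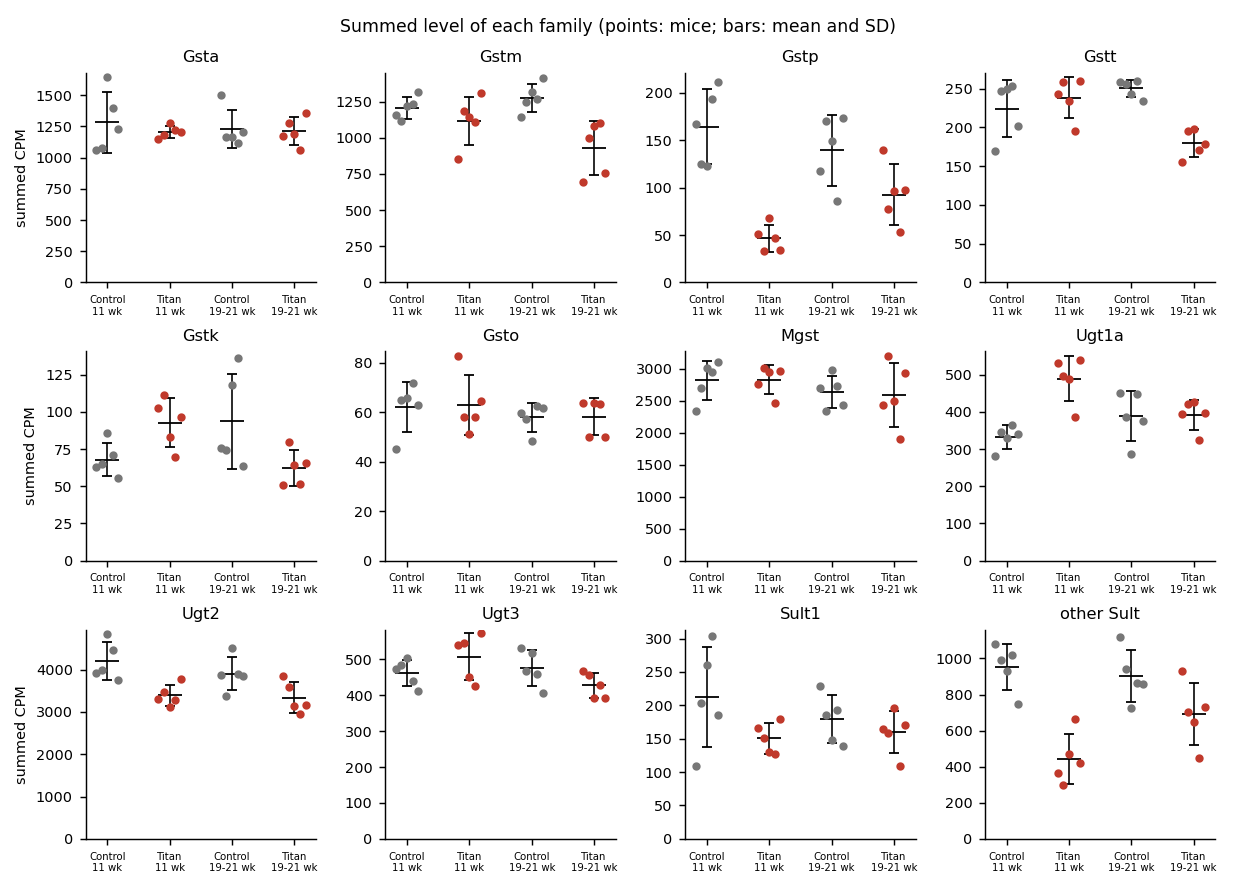
Summed CPM of each family in each mouse (vertical axis from 0), with control mice in grey, Titan mice in red and mean ± SD. The pi class and the non-Sult1 sulfotransferases are lower and the Ugt1a group higher in Titan mice at 11 weeks, and the mu and theta classes are lower at 19–21 weeks.

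Genes that supply the co-substrates were counted as lists chosen with earlier results of these data known. The counts stand beside the 14.9% of all tested genes called at 11 weeks and the 9.12% called at 19–21 weeks. Of 15 tested genes of glutathione supply, 3 were higher and 2 lower in Titan mice at 11 weeks and 4 were lower at 19–21 weeks, with medians of -0.06 and -0.07. *Cth*, which makes cysteine from cystathionine, was 421 ± 90.5 CPM in controls and 181 ± 10.6 in Titan mice at 11 weeks (-1.21, SE 0.13, edgeR adjusted p = 3.4e-06) and -0.84 (SE 0.13, adjusted p = 0.000284) at 19–21 weeks. *Esd*, which releases glutathione from its formaldehyde adduct, was lower, with log2 fold changes of -0.64 (SE 0.09, adjusted p = 6.91e-05) and -0.97 (SE 0.09, adjusted p = 1.51e-06), without overlap at either age. *Oplah*, which recycles 5-oxoproline to glutamate, was higher at 11 weeks (0.59, SE 0.12, adjusted p = 0.00188). None of the 9 tested genes of UDP-glucuronate supply passed in edgeR at either age, with medians of 0.03 and 0.09. Of 11 genes of PAPS supply and sulfate transport, 1 was higher at 11 weeks and 1 higher and 2 lower at 19–21 weeks. The higher one was the lysosomal sulfatase *Arsb* (1.06, SE 0.17, and 1.02, SE 0.18, adjusted p = 0.00029 and 0.00102). *Papss2*, which makes PAPS, was 181 ± 38.8 CPM in older controls and 98.7 ± 28.8 in older Titan mice (-0.88, SE 0.17, adjusted p = 0.00246). *Suox*, the sulfite oxidase, also fell at that age (-0.45, SE 0.10, adjusted p = 0.0056). Other conjugating enzymes had 1 gene higher and 3 lower of 17 at 11 weeks and none called at 19–21 weeks in edgeR, with *Acsm1* (-0.37), *Acsm3* (0.52) and *Nat8* (-1.08) the leading ones.

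Among 13 transporters of conjugates, 1 was higher and 1 lower at 11 weeks and 1 lower at 19–21 weeks. Over all tested genes, 14.9% were called at 11 weeks and 9.12% at 19–21 weeks. The bile salt export pump *Abcb11* fell at 11 weeks (-0.56, SE 0.14, edgeR adjusted p = 0.0109) and *Abcg2* at 19–21 weeks (-0.59, SE 0.16, adjusted p = 0.0199). The uptake transporter *Slco1a1*, which is also in the male-biased list, rose at 11 weeks (0.60, SE 0.10, adjusted p = 0.00051). Of 22 regulators, 3 were higher and 1 lower at 11 weeks, and none passed in edgeR at 19–21 weeks. *Nfe2l2*, which encodes NRF2, was 63.8 ± 6.01 CPM in controls and 112 ± 17.7 in Titan mice at 11 weeks (0.82, SE 0.16, adjusted p = 0.00125) and 78.1 ± 22 against 75.2 ± 10.7 at 19–21 weeks (-0.05, SE 0.16). The forkhead factor *Foxa2* fell at 11 weeks (-0.66, SE 0.18, adjusted p = 0.0143).

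Known targets of these regulators outside the 3 families were counted in the same way, beside the same 14.9% and 9.12% of all tested genes. NRF2 targets had 6 genes higher and 1 lower of 16 at 11 weeks, with a median of 0.40, and 1 higher at 19–21 weeks, with a median of -0.01. *Me1*, the malic enzyme that makes NADPH, was the strongest at 11 weeks (1.88, SE 0.28, edgeR adjusted p = 0.000109), followed by *Pgd* of the pentose phosphate pathway (0.92, SE 0.20, adjusted p = 0.00328), and the one called at 19–21 weeks was the carboxylesterase *Ces1g* (1.46, SE 0.28, adjusted p = 0.00256). CAR and PXR targets had 1 gene higher and 5 lower of 16 at each age, with medians of -0.02 and -0.09, against -0.02 and 0.01 over all tested genes. The higher gene was *Slco1a4* at 11 weeks and *Cyp3a13* at 19–21 weeks. *Cyp2c54* was 105 ± 49.3 CPM in controls and 18.3 ± 8.36 in Titan mice at 11 weeks (-2.52, SE 0.38, adjusted p = 0.00012), and *Cyp2c37* (-2.0 and -2.38) and the carboxylesterase *Ces2a* (-1.23 and -0.76) were lower without overlap at both ages. AHR targets had 1 higher and 1 lower of 5 at 11 weeks, *Cyp1b1* (1.71) and *Cyp1a2* (-1.57), and at 19–21 weeks *Cyp1b1* alone was called (2.22, SE 0.43, adjusted p = 0.00235). The medians of the 5 were 0.44 and -0.29.

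Genes known for sex-biased expression in mouse liver differed between the lines at 11 weeks. At that age 14.9% of all tested genes were called, and 9.12% at 19–21 weeks. Of 14 tested female-biased genes outside the families, 9 were higher and 1 lower in the younger Titan mice, with a median of 2.91, and none passed in edgeR at 19–21 weeks, with a median of 0.16. Of 21 male-biased genes, 1 was higher and 17 lower at 11 weeks, with a median of -2.08, and 1 was lower at 19–21 weeks, with a median of -0.35. The summed level of the female-biased list ran from 34.3 to 121.7 CPM in younger controls and from 186.7 to 1929 in younger Titan mice, and from 41.3 to 101.2 and 84.4 to 221.3 in the older groups. *A1bg* was 0.438 ± 0.733 CPM in younger controls and 565 ± 515 in younger Titan mice, and *Acot3* (4.25, SE 0.61) and *Cyp17a1* (3.15, SE 0.46) followed it. The male-biased *Cyp7b1*, an oxysterol hydroxylase, was 694 ± 185 against 109.7 ± 41.7 CPM (-2.66, SE 0.31, edgeR adjusted p = 7.28e-06), with *Susd4* (-3.89) and *Cyp2u1* (-2.09) beside it. These values stand beside the phase II calls at 11 weeks, and their part in those calls was not tested.

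**Figure D5:**
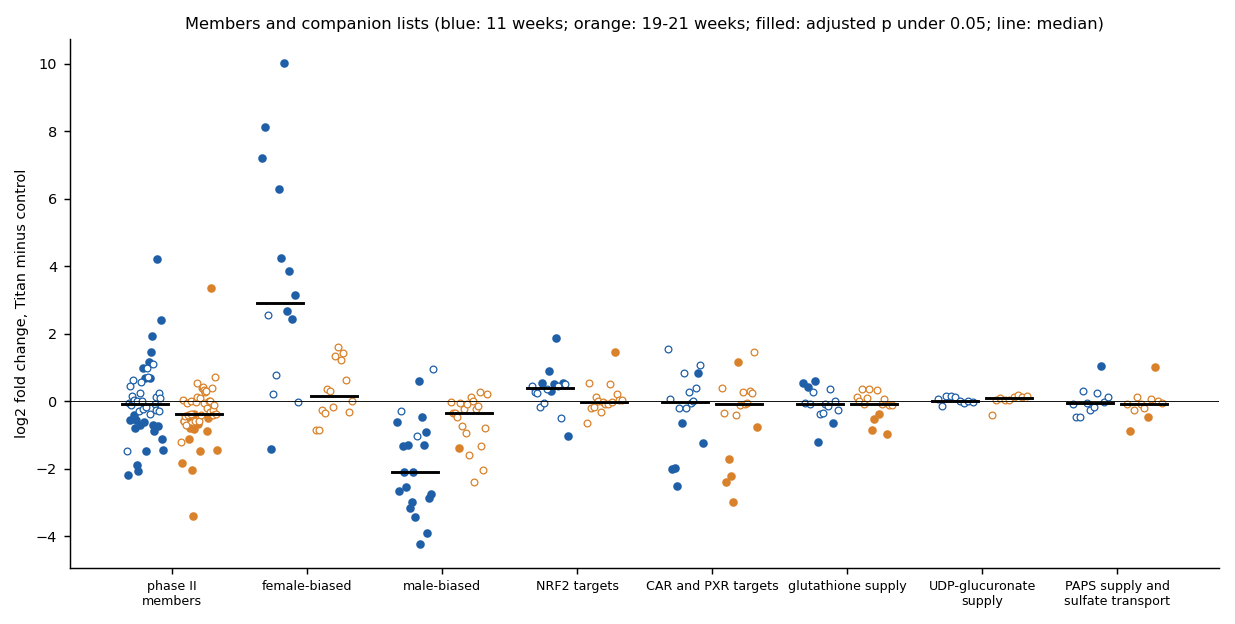
Log2 fold change (Titan minus control, vertical axis) of each tested gene in the phase II set and in 7 companion lists at 11 weeks (blue) and 19–21 weeks (orange), filled where the adjusted p is under 0.05, with the median as a line. The female-biased median of 2.91 and the male-biased median of -2.08 at 11 weeks stand apart from those of the other lists.

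Markers of cell types and liver zones were counted as a check of the tissue. Their counts, too, stand beside 14.9% of all tested genes called at 11 weeks and 9.12% at 19–21 weeks. All 6 tested hepatocyte markers were abundant, with a summed level between 83415 and 122995 CPM per mouse, and 1, *Apoa1*, was lower at 11 weeks (-0.54, SE 0.14, edgeR adjusted p = 0.012). Summed cholangiocyte markers stayed between 14.9 and 63.9 CPM and Kupffer cell markers between 96.1 and 279.9 CPM per mouse, with no gene called in either list in edgeR at either age. No gene of the stellate cell and fibroblast list (6 tested) or the erythroid list (3 tested) was called either. Of 6 endothelial markers, *Kdr* (-0.26) and *Pecam1* (-0.28) were lower at 11 weeks and *Lyve1* (-2.18) at 19–21 weeks, and of 3 tested leukocyte markers the T cell gene *Cd3e* was higher at both ages, at 0.165 ± 0.145 and 2.61 ± 0.819 CPM at 11 weeks. Pericentral hepatocyte genes had 2 higher and 4 lower of 15 at 11 weeks and 1 of each at 19–21 weeks, with medians of -0.38 and 0.02. At 11 weeks the higher ones were *Nt5e* (2.26) and *Aldh3a2* (1.38), and the lower ones *Cyp1a2* (-1.57), *Cyp2e1*, *Oat* and *Lgr5*. Periportal genes had 1 higher and 3 lower of 15 at 11 weeks and 5 lower at 19–21 weeks, among them *Hal* (-0.66 and -0.70), *Gls2* (-0.90) and *Sds* (-0.86). The part of these lists in the phase II values was not tested.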

How the data were processed

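Liver RNA of 20 male mice in 4 groups was depleted of rRNA and made into strand-specific libraries. The authors mapped the reads with STAR 2.5.3a to GRCm38 and deposited raw counts of reads per gene for each library, made with the Ensembl 97 annotation, in which unmapped, multi-mapped and ambiguous reads were not assigned to genes. The counts of the library's strand were used, which held between 96.8% and 97.5% of the reads on genes. Groups followed the labels. As in the study, 1562 genes of the Y chromosome and 109 more genes of histones were dropped.

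Symbols were taken from the GENCODE M21 annotation of GRCm38. edgeR 4.0.16 in R 4.3.3 was used with TMM scaling, its default filter on low counts and a quasi-likelihood fit of all 4 groups, with Benjamini-Hochberg adjusted p over 13783 genes. Each standard error was found from the size of the log2 fold change and the square root of its F statistic. CPM used the TMM-scaled library size. Counts were simulated for the 11-week comparison over 13647 genes. The fit found 37.84% of 74 genes changed by 0.5, 80.33% of 61 changed by 1 and 96.83% of 63 changed by 2 on the log2 scale. Of its calls, 6.757% were false. Far fewer genes were changed there than the 14.9% called in the data, and these rates depend on that share, so they may differ in the data. With between 6794935 and 23295028 reads on genes per mouse, levels of genes with few reads rest on counting error as well as on the spread between mice. The labels call the mice biological replicates.

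The members and all gene lists were chosen with earlier results of these data known. Genes were named by rule, namely *Gsta2* and *Gsta4*, up to 4 called members of each family per comparison by p, the 2 most abundant members per kb of each family, members called in an age comparison, those nearest the read limit, and up to 3 called genes of each companion list. Short values of the other members were added so that each is accounted for. Alternatives were DESeq2 1.42.0, RLE scaling, counts of both strands, other filters on low counts, fits of only the groups compared, a replicate block, each mouse left out in turn and, added after seeing the data, 5 libraries left out together. Promoter letters were read from RefSeq sequences on GRCm38 for 43 of the 48 members, with Python 3.11.15 and biopython 1.88. Besides the motifs named with the results, 3 were searched in the 250 bases before the start, and found in 4 (antioxidant response element core, TGACNNNGC, 10.2% of all promoters), 10 (xenobiotic response element core, GCGTG, 28.2%) and 3 (STAT5 element, TTCNNNGAA, 7.02%) of the 43 members. Sequence shared between genes was measured as 50-base words of the annotated transcripts. The values of 1 regulator gene are not reported here.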

Additional observations from a re-analysis of the deposited data

Results flagged for a closer look

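In 9 of 156 groups of 5 mice, over the 39 phase II genes named by rule, 1 mouse lay further from the others than Dixon's test allows. Chance flags about 1 group in 20, or 7.8 of 156. In the 19–21-week-old controls, replicate 5 had 15.8 CPM of *Ugt2b37* (the others 1.46 to 3.43) and 68.5 CPM of *Gstp3* (2.81 to 16.4). In the same group, replicate 4 had 10.9 CPM of *Gstm5* (7.5 to 8.39) and 17.3 CPM of *Ugt1a6a* (10.6 to 12.1), and replicate 1 had 1398 CPM of *Gsta3* (1023 to 1113). In the 19–21-week-old Titan mice, replicate 4 had 87.2 CPM of *Ugt2b37* (30.6 to 45.8), and replicate 1 had 1.09 CPM of *Gstp2* (0.0977 to 0.365) and the lowest level of *Ugt2a3*, 119 CPM (169 to 175). In the 11-week-old controls, replicate 3 had 97.9 CPM of *Gsta4* (68.8 to 76.6). Replicate 4 of the older controls and replicate 4 of the older Titan mice were among the libraries with over 25% of reads outside genes.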

How the results depend on the processing

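Of 38 calls of named members between the lines, 21 stayed past the threshold under every alternative that gave a value, which was 26 of 28 for *Sult2a7* and all 28 for the others, and none changed sign. The 38 include both calls of *Gstp2*, and the 21 include the 11-week call of *Sult2a7*. Both genes reached the read limit mainly through the line in which they were higher, so these calls are a description. The age calls in Titan mice were lost in 19 of 28 alternatives for *Gstp1* and in 9 for *Gstt1*. The count of genes higher at 11 weeks was 8 and ran from 5 to 9 with 1 mouse left out, and that of genes lower was 15 and ran from 11 to 16. At 19–21 weeks 1 gene was higher with any 1 mouse left out, and the 14 lower ones ran from 11 to 16. Fitting only the groups compared gave 9 lower genes at 19–21 weeks. Without the 5 libraries with over 25% of reads outside genes, an alternative added after seeing the data, 9 genes were lower at each age. Calls lost there were *Gstm5*, *Gstm6*, *Gstm7*, *Gstp2*, *Sult1b1*, *Sult1c2*, *Ugt1a8* and *Ugt2a3* at 11 weeks, and *Gstm5*, *Gstp2*, *Gstp3*, *Gstt1*, *Sult1b1*, *Sult5a1* and *Ugt2b1* at 19–21 weeks, while *Gstm1* (-0.62, adjusted p = 0.0151) and *Gsto2* (-2.60, adjusted p = 0.0410), which is in the set through controls alone, were called lower at 19–21 weeks there.

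Between the ages in Titan mice the count of higher genes was 1. It was 0 with both strands, with the replicate block, with only the groups compared and without the 5 libraries, 2 with DESeq2, and 0 to 2 with 1 mouse left out. The count of lower genes was also 1. It was 3 with no filter on low counts, 0 with the replicate block, with only the groups compared and without the 5 libraries, 4 with DESeq2, and 0 to 3 with 1 mouse left out. DESeq2 called 1 gene lower with age in controls and 4 in the interaction, and the latter count ran from 0 to 1 in edgeR with 1 mouse left out. The cause of these differences was not tested.

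The deviations of same-numbered mice correlated between -0.144 and 0.107 over 20 pairs of mice, so no pairing by number was seen across all genes. Whether same-numbered mice shared a handling step was not tested. Replicate 4 had the highest or second-highest share of reads outside genes in every group. Its share was 28.2% and 21.7% in the younger controls and Titan mice, and 30.5% and 27.4% in the older ones. With the replicate number as a block, 7 genes were higher and 15 lower at 11 weeks, and 1 was higher and 15 lower at 19–21 weeks. Of 288 alternative family sums 1 moved by more than the spread between mice, the Ugt1a ratio at 11 weeks, which was 0.74 with both strands. RLE scaling moved the median log2 fold change of all genes by at most 0.0154 and DESeq2 by at most 0.0155.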

Other observations

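The summed level of several families rested on 1 gene. Over the 20 mice *Gstp1* held 92.5% of the pi-class sum, *Mgst1* 99.6% of the Mgst sum, *Gsto1* 99.2% of the Gsto sum and *Ugt3a2* 84.7% of the Ugt3 sum. In the Ugt2 group *Ugt2b1*, which had the most CPM before division by length, held 24.5%.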
